A study of Mus musculus with 16 samples.

Results

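The 9 genes described here, Gp2, Spib, Sox8, Tnfrsf11a, Ccl20, Ccl9, Tnfaip2, Pglyrp1 and Aif1, are markers and regulators of M cells and of the epithelium that covers lymphoid follicles in the gut wall. They were picked by gene symbol from the 24940 genes of the count table, with no measured value used, and all 9 were found. RNA-seq was run on the last stretch of the ileum, next to the cecum, of C57BL/6 mice of both sexes and 2 genotypes, WT and LKO, with 4 libraries in each of the 4 groups. WT mice were Bcl6 fl/fl, and LKO mice were Alb-cre, Bcl6 fl/fl, so that all animals carried the floxed Bcl6 alleles. Alb-cre acts in hepatocytes, which leaves the ileum itself with an intact Bcl6 by design, and a difference between the genotypes here is one in the gut of mice that lack Bcl6 in the liver. The labels give no age, and nothing in them says whether a sampled piece held a Peyer's patch.

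M cells are specialised epithelial cells that carry particles and bacteria from the gut lumen to the immune cells beneath them. They form when stromal cells under the epithelium show RANKL to the receptor RANK, encoded by Tnfrsf11a, which signals through NF-kB. The transcription factors Spib and Sox8 then drive maturation, and mature M cells display the uptake receptor Gp2. The covering epithelium also secretes the chemokines Ccl20 and Ccl9, which attract cells bearing the receptors CCR6 and CCR1. Several of these genes have other homes in the gut: Spib is also a B cell gene, Aif1 a macrophage gene and Pglyrp1 a neutrophil gene. The level of Cd79a, a subunit of the B cell receptor complex, was therefore set beside each of them in every library.

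Because RANK signals through NF-kB, the promoters of the 9 genes, from 250 bases before to 50 bases after the transcription start in RefSeq (GRCm38.p6, the assembly behind mm10), were searched on both strands. The NF-kB-type motif (GGG, any 3 bases, then TTCC) was present in 3 of the 9 promoters, against 5.56% of all 32851 promoters of that length. These 3 sites are shown with the motif in capitals and 10 bases on either side, read along the gene's own strand 5′ to 3′, and in each the motif lies on the opposite strand. The Ccl20 site starts 80 bases before the start of transcription (chr1:83116686-83116695, plus strand), the Ccl9 site 35 bases before it (chr11:83578662-83578671, minus strand) and the Pglyrp1 site 93 bases before it (chr7:18884597-18884606, plus strand).
Ccl20: aatcaatgggGGAAAACCCCgggtgagaac
Ccl9: tttgaactttGGAAAGCCCCaagtcacctt
Pglyrp1: ggtctgggtcGGAAAGTCCCgcccaggtgt
The PU box GAGGAAGT, bound by SPI1 and SPIB, was in 0 of 9 windows and 3.2% of all, and the ERR element TCAAGGTCA was in 0 of 9 and 0.423% of all. The promoter of Cd79a, searched beside the 9, also held an NF-kB-type match, starting 146 bases before the start of transcription. A match is a match of letters only, and a window without one says nothing about the factor.

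Gp2 and Spib, the members whose levels followed Cd79a, are shown by the 100 bases just before their starts. The letters GGAA, the core bound by ETS factors such as SPIB, and their reverse complement TTCC are in capitals. This core was chosen after the values were seen, and it is contained in the NF-kB-type motif and in the PU box. The Gp2 window is chr7:119459273-119459372 and the Spib window chr7:44532072-44532171, both on the minus strand.
Gp2: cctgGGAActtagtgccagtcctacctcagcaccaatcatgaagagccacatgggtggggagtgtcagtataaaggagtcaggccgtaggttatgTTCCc
Spib: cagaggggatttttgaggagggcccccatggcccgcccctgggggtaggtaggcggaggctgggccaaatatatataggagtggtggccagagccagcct
The core occurs 2 times in the Gp2 window and 0 times in that of Spib. Of all promoters, 66.8% hold it at least once in the same 100 bases.

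Counts assigned to genes ran from 15.7 to 20.5 M in 15 libraries and reached 60.3 M in female LKO replicate 1. Values below are CPM, counts relative to the size of the library after TMM scaling, and 3 counts in a library were worth 0.0497 to 0.191 CPM. Bcl6 itself was present in every ileum, at 15.8 ± 1.55 CPM in male WT, 18.9 ± 1.97 in male LKO, 12.1 ± 2.91 in female WT and 20.7 ± 5.03 in female LKO (SD, n = 4 each), so these libraries do not test the liver deletion. The epithelial markers, which include Epcam, Vil1 and Cdh1, were counted in every library, and their 7 genes summed to between 12087 and 15960 CPM. The 15 B cell follicle markers summed to between 36.1 and 544 CPM. Cd79a was highest in 4 libraries, at 16.1 CPM in female WT replicate 3, 28.0 in male WT replicate 2, 42.2 in female LKO replicate 2 and 78.8 in female LKO replicate 3, against 6.79 to 12.4 in the other 12. These 4 are called the Cd79a-high libraries. Male LKO holds none of them, and most results that turn on them are given with and without them. In whole tissue, fewer cells of a type and less RNA per cell cannot be told apart.

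**Figure D1:**
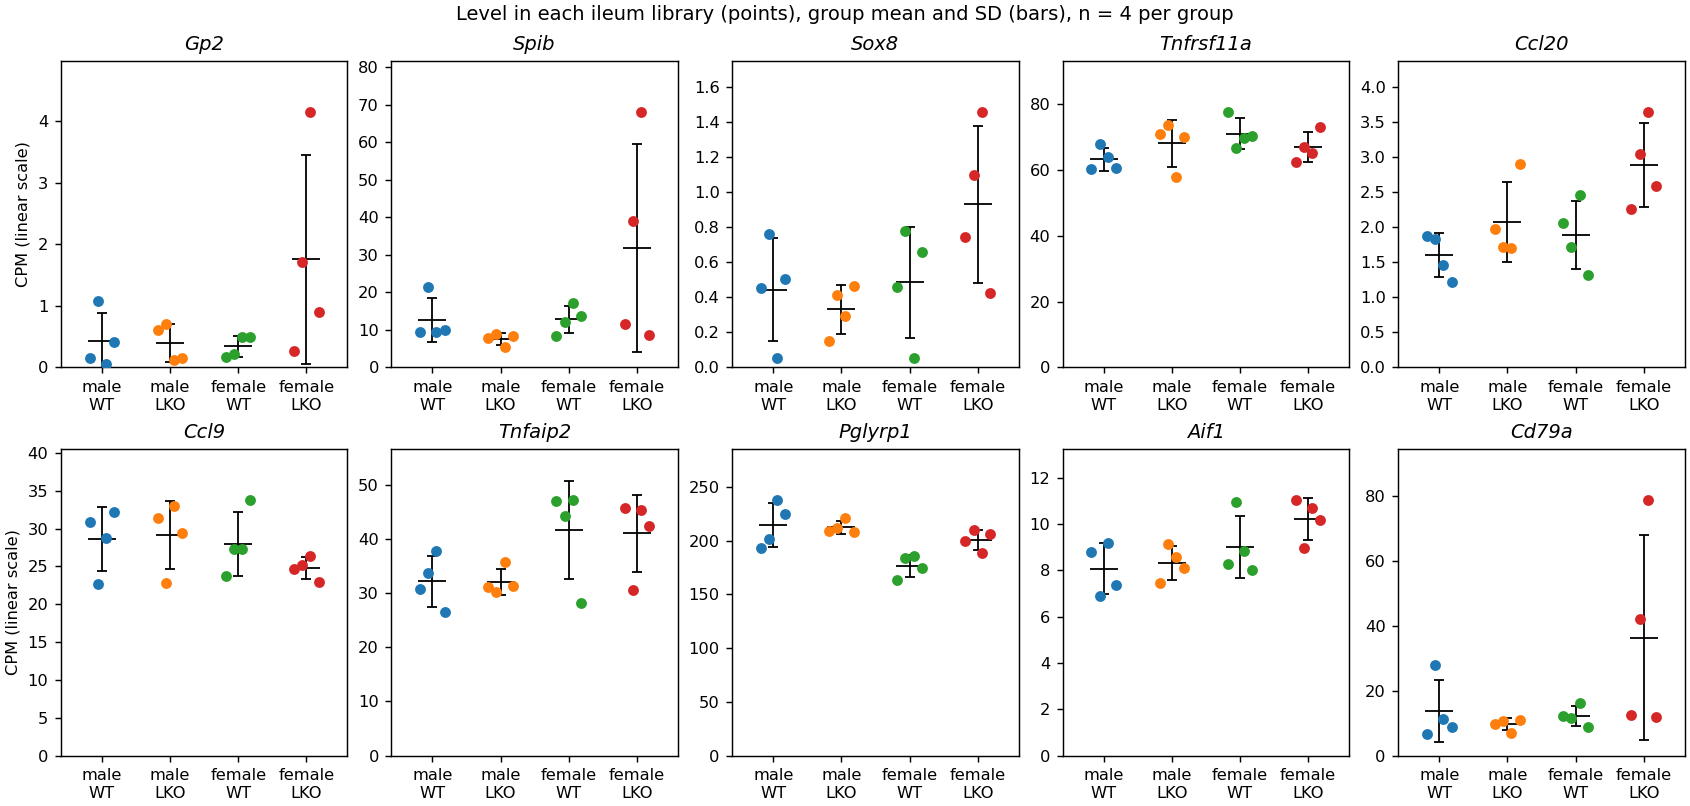
Level of the 9 genes and of Cd79a in CPM (linear vertical axes starting at 0) in each of the 16 ileum libraries, by sex and genotype. Points are libraries and bars are the mean ± SD of 4. Spib and Gp2 reach their 2 highest values in the female LKO libraries that also hold the most Cd79a, while Tnfrsf11a stays between 57.8 and 77.6 CPM throughout.

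The 9 genes covered a wide range of levels. Per kilobase of transcript, Pglyrp1, a secreted protein that binds bacterial peptidoglycan, was by far the highest, with a median of 301.6 CPM per kilobase over the 16 libraries. Tnfrsf11a followed at 13.5, and Pglyrp1 was above it in 16 of 16 libraries with no overlap. Tnfaip2, whose protein helps form membrane nanotubes, stood at 9.78, the actin-binding gene Aif1 at 9.54 and the chemokine Ccl9 at 9.08 CPM per kilobase. These 3 are not separated by their spread, since Tnfaip2 exceeded Aif1 in 11 of 16 libraries and Aif1 exceeded Ccl9 in 9 of 16. Spib stood at 3.51 and Ccl20 at 2.42 CPM per kilobase, Spib being the higher in 13 of 16 libraries. The mature M cell receptor Gp2 and its regulator Sox8 came last, at 0.229 and 0.155 CPM per kilobase, and Gp2 was the higher of them in 10 of 16. RANK mRNA, the start of the M cell pathway, varied over only 1.34-fold between libraries, while the late marker Gp2 rested on 1 to 74 counts a library.

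Gp2 was read at 0.152, 1.08, 0.056 and 0.406 CPM in the 4 male WT libraries (replicates 1 to 4) and at 0.608, 0.713, 0.117 and 0.156 in male LKO. In female WT it stood at 0.172, 0.222, 0.493 and 0.495 CPM, and in female LKO at 0.275, 1.71, 4.15 and 0.901. The highest 3 values are those of female LKO replicates 3 and 2 and male WT replicate 2, all of them Cd79a-high, whereas the remaining Cd79a-high library, female WT replicate 3, lies within the range of the others.

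Spib was counted far more deeply, at 91 counts or more in every library. It stood at 9.42, 21.3, 9.58 and 9.90 CPM in male WT, at 7.85, 8.80, 5.34 and 8.30 in male LKO, at 8.50, 12.1, 17.2 and 13.6 in female WT, and at 11.6, 38.9, 68.0 and 8.58 in female LKO. The 4 Cd79a-high libraries hold the 4 highest values, 17.2 to 68.0 CPM, against 5.34 to 13.6 in the other 12. The share of all genes split in this way was not computed. Cd79a over the same libraries read 6.79, 28.0, 11.4 and 8.83 CPM in male WT, 9.88, 10.8, 6.99 and 10.9 in male LKO, 12.1, 11.6, 16.1 and 8.79 in female WT, and 12.4, 42.2, 78.8 and 11.9 in female LKO. The CPM ratio of Spib to Cd79a ran from 0.701 to 1.55 with a median of 0.852, while Cd79a ranged over 11.6-fold and Spib over 12.7-fold. Both ends of the ratio, in female WT replicates 1 and 4, lie among the 12 libraries that are not Cd79a-high. The ratio thus varied 2.21-fold in libraries where Cd79a itself ran only from 6.79 to 12.4 CPM. The ratio of Gp2 to Cd79a was less even, from 0.00495 to 0.0759, at far lower counts.

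The question asked next was which of the 9 genes follow follicle RNA from animal to animal once sex and genotype are held fixed. With log2 Cd79a as a term beside the 4 groups, 2 of the 9 passed edgeR's quasi-likelihood test (Benjamini-Hochberg adjusted p below 0.05 over all genes), both upward. Of the 15597 genes tested, 2.46% passed upward and 2.87% in either direction. The slope, the change in log2 level per unit of log2 Cd79a, was 0.90 for Spib (SE 0.090, adjusted p = 9.75e-06) and 1.14 for Gp2 (SE 0.21, adjusted p = 0.00277). For both genes the 95% interval holds 1, the slope of a gene that changes in proportion to Cd79a: it is 0.71 to 1.09 for Spib and 0.70 to 1.59 for Gp2. That holds for Cd79a alone, since the B cell follicle genes had a median slope of 1.54 on it. With the mean log2 level of the other follicle genes in place of Cd79a, the slope was 0.57 for Spib and 0.69 for Gp2. Both genes passed edgeR's test there too (adjusted p = 8.84e-06 and 0.00866). Ccl20 had a smaller slope of 0.23 (SE 0.099, unadjusted p = 0.0304, adjusted p = 0.278), and Sox8 one of 0.38 (SE 0.22, adjusted p = 0.466). The other 5 slopes were close to 0, from -0.06 to 0.03. The interval was -0.05 to 0.11 for Tnfrsf11a and -0.09 to 0.05 for Pglyrp1 over all 16 libraries.

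**Figure D2:**
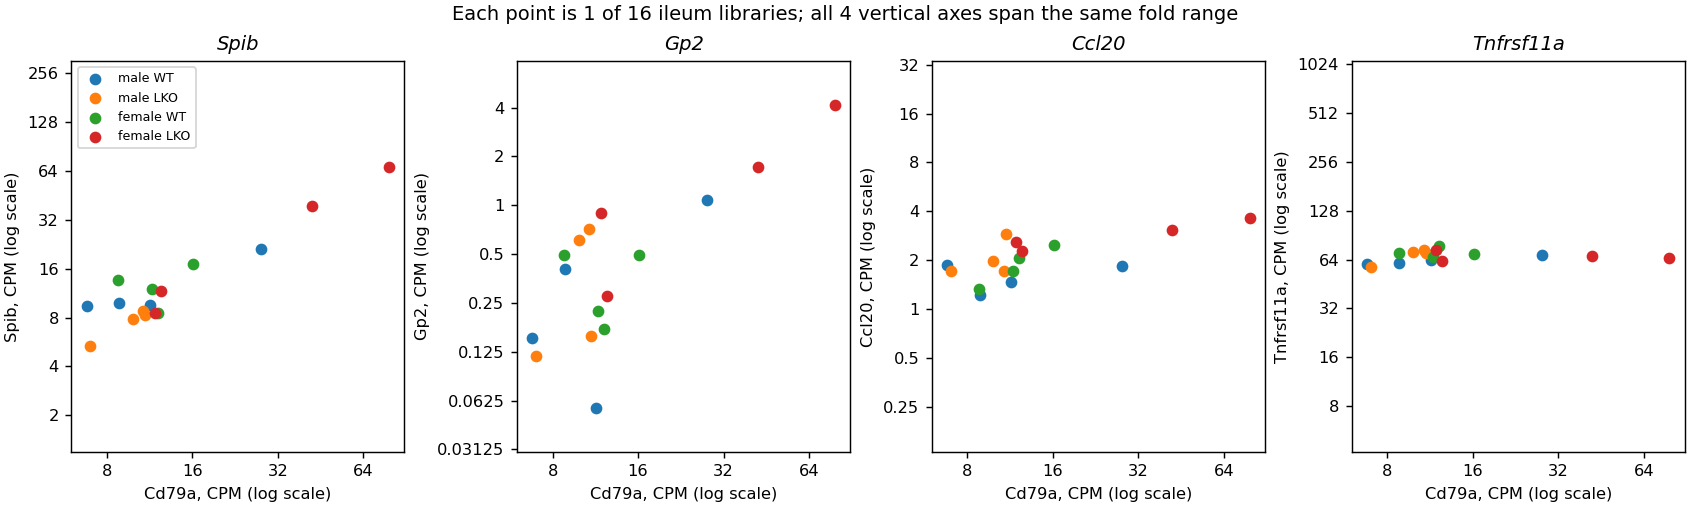
Level of Spib, Gp2, Ccl20 and Tnfrsf11a against Cd79a, both in CPM on log axes, in the 16 libraries coloured by group. Spib climbs with Cd79a to 68.0 CPM at 78.8 CPM of Cd79a, Gp2 climbs with more scatter at low counts, Ccl20 climbs less, and Tnfrsf11a stays level.

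Both slopes rested on the Cd79a-high libraries. Without those 4, the slope of Spib was 0.21 (95% interval -0.44 to 0.86, adjusted p = 0.882) and that of Gp2 was -0.05 (-2.88 to 2.77, adjusted p = 0.993), over a range of Cd79a of only 6.79 to 12.4 CPM. The interval for Gp2 still holds its slope over all 16 libraries, and that for Spib ends just below its own. Tnfrsf11a had a slope of 0.27 in the same 12 libraries (-0.01 to 0.55, adjusted p = 0.572), with an interval inside that of Spib. Leaving out female LKO replicate 3 alone kept Spib past the threshold and took Gp2 back over it (slope 1.08, adjusted p = 0.187). Within sexes Spib passed in males alone (slope 0.66, adjusted p = 0.0236) and in females alone (0.99, adjusted p = 0.00397), while Gp2 was too low to be tested in either. The only Cd79a-high library among the males is male WT replicate 2, at 28.0 CPM of Cd79a against 6.79 to 11.4 in the others. The fit in males alone was not run without it. Leaving out the 2 female LKO libraries of this kind gave 0.62 for Spib (adjusted p = 0.0483) and 1.17 for Gp2 (adjusted p = 0.735).

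Simple correlations of log2 CPM with Cd79a over the 16 libraries were computed for the 9 genes, with no group terms and unadjusted p-values. Spib had Pearson's r = 0.938 (permutation p = 3e-05) and Spearman's rho = 0.632 (permutation p = 0.00936). For Gp2 r was 0.813 (permutation p = 0.00024) and rho 0.568 (permutation p = 0.0230). For Ccl20 r was 0.678 (permutation p = 0.00279) and rho 0.662 (permutation p = 0.00676). Leaving out the 2 libraries farthest from the median of Cd79a brought r to 0.748 for Spib, 0.499 for Gp2 and 0.299 for Ccl20, and within the 12 libraries that are not Cd79a-high it was 0.332, 0.177 and 0.403. Ccl9 went the other way, with r = -0.465 (permutation p = 0.0681), rho = -0.709 (permutation p = 0.00304) and r = -0.734 within the 12 libraries. Within the 12 libraries Tnfrsf11a had r = 0.614 (permutation p = 0.0349) and Tnfaip2 r = 0.605 (permutation p = 0.0377), both above Spib and Gp2 there. Over all 16, r was 0.123 for Tnfrsf11a (permutation p = 0.651) and 0.289 for Tnfaip2 (permutation p = 0.291), and rho was 0.197 (permutation p = 0.461) and 0.568 (permutation p = 0.0252). The slope of Ccl9 with the groups held fixed was -0.06 (SE 0.059, adjusted p = 0.710), and without the Cd79a-high libraries -0.42 (SE 0.17, adjusted p = 0.511).

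**Figure D3:**
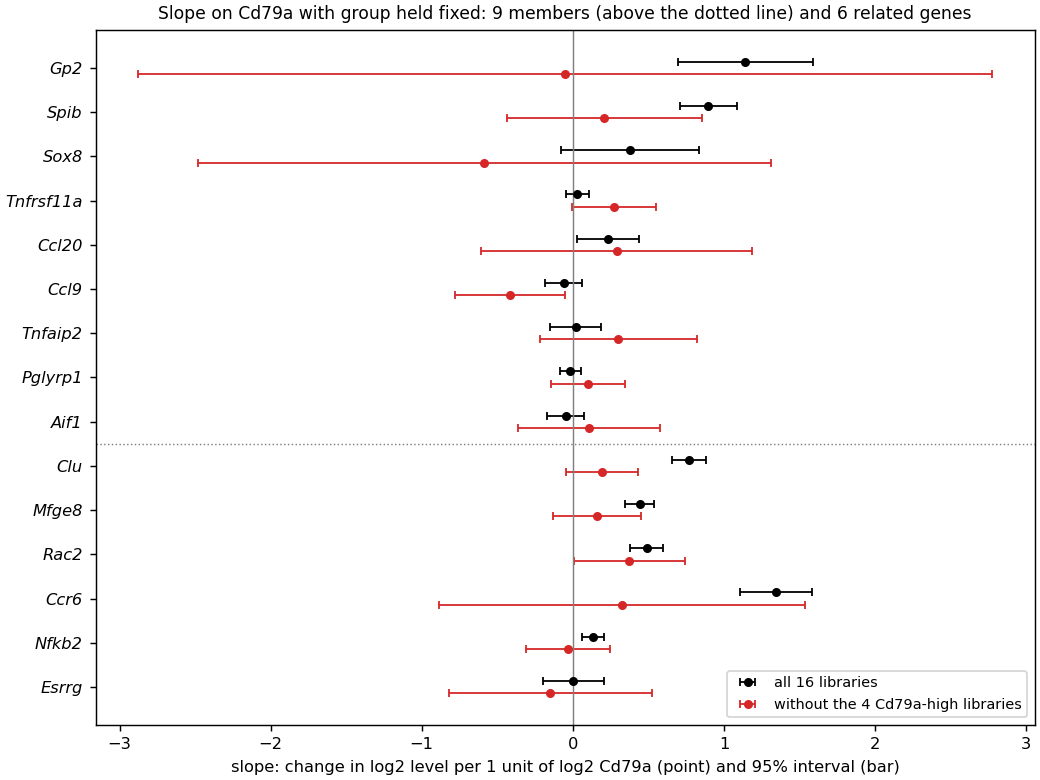
Slope on log2 Cd79a with group held fixed (points, change in log2 level per unit) and 95% intervals (bars) for the 9 genes and 6 related genes, in all 16 libraries (black) and without the 4 Cd79a-high ones (red). Spib, Gp2, Clu, Mfge8, Rac2 and Ccr6 lie well above 0 in black, Ccl20 and Nfkb2 narrowly so, and of these 8 genes only Rac2 keeps an interval above 0 without those libraries.

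Other genes of the pathway, from lists kept with earlier results of these data known, were taken along the same slope. Of 14 further M cell genes tested, 3 rose with Cd79a and 0 fell: Clu, which encodes the secreted chaperone clusterin, with a slope of 0.77 (SE 0.054, adjusted p = 1.09e-07), Mfge8, whose protein bridges dying cells to phagocytes, with 0.44 (SE 0.046, adjusted p = 5.52e-06), and the small GTPase Rac2 with 0.49 (SE 0.052, adjusted p = 5.52e-06). Clu and Mfge8 are also made by follicular dendritic cells, and Rac2 by leukocytes in general. Clu stood at 70.7 to 184.5 CPM in the Cd79a-high libraries against 30.5 to 45.4 in the rest. For Mfge8 the ranges were 111.7 to 247.5 against 76.8 to 103.6, and for Rac2 44.2 to 105.4 against 24.2 to 39.4. These ranges restate the slopes, since the libraries were set apart by Cd79a and the 3 genes named for following it. Without the Cd79a-high libraries the slopes were 0.19 for Clu (SE 0.11, adjusted p = 0.655), 0.16 for Mfge8 (SE 0.14, adjusted p = 0.768) and 0.37 for Rac2 (SE 0.17, adjusted p = 0.562). Others of the list had slopes near 0, such as Anxa5 at -0.02 (SE 0.038) and Marcksl1 at 0.07 (SE 0.051). The median slope of the 14 was 0.04 and that of the 9 was 0.03, both beside a median of 0.00 over all genes.

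Of the 11 genes of the RANK pathway and its regulators, 1 rose: Nfkb2, a subunit of the NF-kB branch downstream of RANK, with a slope of 0.13 (SE 0.036, adjusted p = 0.0485), where 2.46% of all genes rose. Without the Cd79a-high libraries its slope was -0.03 (SE 0.13, adjusted p = 0.960). Tnfsf11, which encodes the RANK ligand, had a slope of 0.32 (SE 0.13, adjusted p = 0.259) and lay at 0.355 to 1.68 CPM. The chemokine receptors differed: Ccr6, the receptor for Ccl20 on B cells, rose with a slope of 1.35 (SE 0.11, adjusted p = 1.95e-07), and Ccr1, the receptor for Ccl9 on myeloid cells, had -0.09 (SE 0.069, adjusted p = 0.582). Ccr6 stood at 2.47 to 11.7 CPM in the Cd79a-high libraries and 0.470 to 1.21 in the others, and without the former its slope was 0.32 (SE 0.57, adjusted p = 0.901).

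Markers of other cell types moved as follows along the same slope. Of 13 further B cell follicle genes tested, 12 rose, among them Cd79b at 0.97 (SE 0.062, adjusted p = 6.28e-09), Blk at 1.54 (SE 0.11, adjusted p = 2.1e-08) and Cd22 at 1.46 (SE 0.10, adjusted p = 2.37e-07). Of 7 T cell genes, 1 rose, the kinase Lck at 0.36 (SE 0.058, adjusted p = 0.000436). Without the Cd79a-high libraries the slopes were 0.38 for Cd79b, 0.07 for Blk, 0.12 for Cd22 and 0.46 for Lck, and the lowest adjusted p of these 4 in edgeR was 0.560, for Lck. None of 11 macrophage and dendritic cell genes, 4 neutrophil genes and 7 epithelial genes passed edgeR's test. B cell genes thus rose along Cd79a, as Spib and Gp2 did, and no fit set them against Spib or Gp2. None of Cd79b, Blk, Cd22, Spib and Gp2 passed without the Cd79a-high libraries. The part of B cell genes in the Spib reads was not tested. The macrophage list summed to 542 to 776 CPM with no member at 0, beside Aif1 at 6.92 to 11.0 CPM. The 9 neutrophil genes summed to 6.32 to 14.2 CPM, with 4 of them at 0 in some libraries, beside Pglyrp1 at 163 to 238 CPM.

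The study's main comparison was LKO against WT. None of the 9 genes passed edgeR's test in males, where 7 were tested (background 0.0527% of 15169 genes), in females, where 8 were tested (0.0392% of 15298), or over both sexes with sex as a covariate, where all 9 were tested (0.269% of 15598). DESeq2 also called 0 in each. At an unadjusted p below 0.05 there were 1 of 7 in males, 2 of 8 in females and 1 of 9 over both sexes, against 5.29%, 11.7% and 11.2% of all genes. Gp2 and Sox8 in males, and Gp2 in females, were too low for the filter on counts; with no filter their log2 fold changes were -0.03 and -0.41 in males (SE 0.76 and 0.55) and 2.22 for Gp2 in females (SE 0.96, adjusted p = 0.518).

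Among the chemokines, Ccl20 came nearest to the threshold. It read 1.87, 1.84, 1.46 and 1.22 CPM in male WT and 1.98, 1.72, 1.70 and 2.91 in male LKO. In females it read 2.07, 1.72, 2.47 and 1.32 CPM in WT and 2.26, 3.05, 3.65 and 2.60 in LKO. The LKO means are higher in both sexes, with overlapping libraries. The log2 fold change was 0.39 in males (SE 0.25, adjusted p = 0.999), 0.59 in females (SE 0.23, adjusted p = 0.362) and 0.49 over both sexes (SE 0.17, 95% interval 0.15 to 0.84, unadjusted p = 0.00777, adjusted p = 0.236). Over both sexes it was 0.48 without the Cd79a-high libraries and 0.39 with Cd79a as a covariate. Ccl9 differed by -0.07 over both sexes (SE 0.086, adjusted p = 0.805).

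Among the regulators, Spib showed opposite fold changes in the sexes. In males it was lower in LKO, at 7.57 ± 1.54 CPM against 12.6 ± 5.85 in WT (SD, n = 4 in each group). This is a log2 fold change of -0.72 (SE 0.30, adjusted p = 0.917), and the groups did not overlap, as for 2.87% of genes. In females it was higher in LKO, 31.8 ± 27.8 CPM against 12.8 ± 3.59 (log2 fold change 1.29, SE 0.73, adjusted p = 0.526). The difference of these effects, male minus female, was -2.01 (SE 0.83, unadjusted p = 0.0317, adjusted p = 0.845). Without the Cd79a-high libraries the value was -0.34 in males and -0.15 in females (adjusted p = 1.00 and 0.923). With Cd79a as a covariate over both sexes it was -0.29 (adjusted p = 0.453). The B cell follicle genes stood beside it: of 11 tested in males 0 were positive, with a median log2 fold change of -0.58, and of 12 tested in females 12 were positive, with a median of 1.77, none of them past the test. Their part in the Spib values was not tested.

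Of the other lists over both sexes, 0 of 14 further M cell genes, 0 of 2 chemokine receptors and 0 of 14 B cell follicle genes passed edgeR's test by genotype. No gene passed the test of the difference between sexes by edgeR or DESeq2, and 2 of the 9, Spib and Pglyrp1, had an unadjusted p below 0.05, as did 5.64% of all genes.

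**Figure D4:**
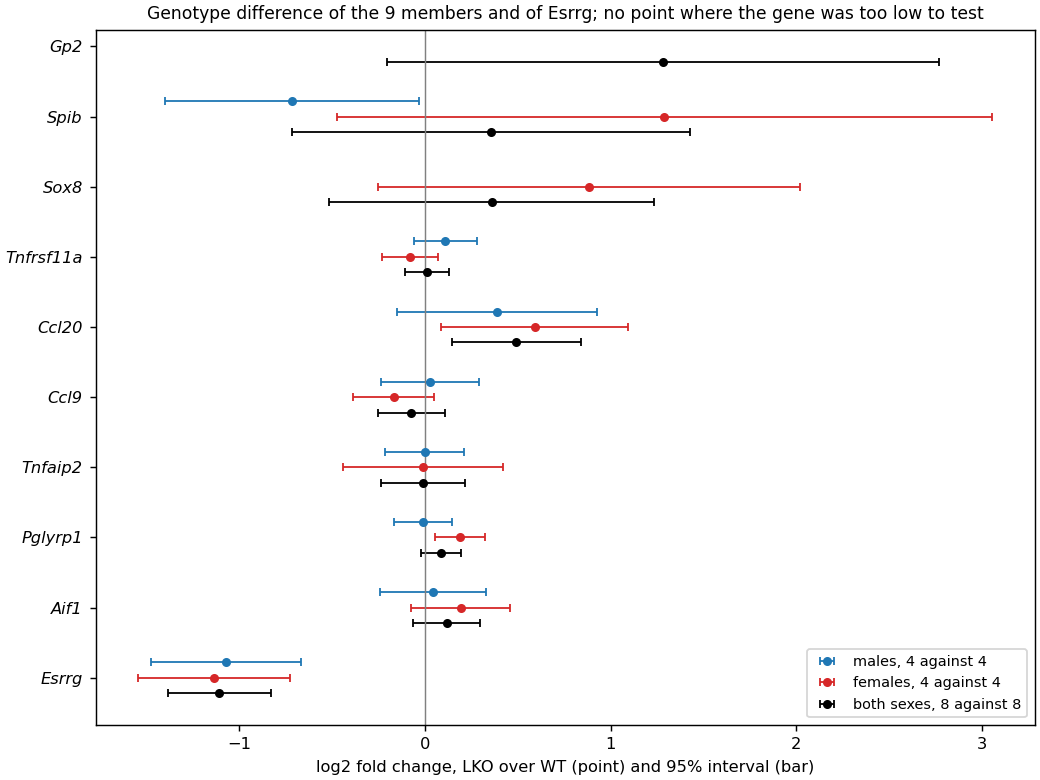
Log2 fold change of LKO over WT (points) with 95% intervals (bars) for the 9 genes and Esrrg in males, females and both sexes. Gp2, Spib and Sox8 have the widest intervals, such as -1.40 to -0.03 for Spib in males and -0.47 to 3.05 in females. Tnfrsf11a, Ccl9, Tnfaip2, Pglyrp1 and Aif1 lie within about 0.5 of 0, and Esrrg lies near -1 in each fit. Gp2 in males and in females, and Sox8 in males, were too low to test and have no point.

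Esrrg, an orphan nuclear receptor known to act upstream of Sox8 in M cell maturation and active elsewhere in energy metabolism, was the 1 gene of the 11 pathway genes that passed the test by genotype. It read 7.55, 7.61, 6.76 and 4.67 CPM in male WT, 3.50, 3.21, 3.52 and 2.39 in male LKO, 6.21, 6.55, 7.34 and 4.95 in female WT, and 2.60, 3.42, 2.08 and 3.34 in female LKO. Every LKO library lies below every WT library, which was so, in either direction, for 0.0641% of genes. Over both sexes it fell by 1.11 on the log2 scale in LKO (SE 0.13, adjusted p = 0.000473), from a mean of 6.46 to 3.01 CPM. The effect was -1.07 in males (SE 0.19, adjusted p = 0.0619) and -1.14 in females (SE 0.19, adjusted p = 0.0555), and without the Cd79a-high libraries it was -1.01 over both sexes (adjusted p = 0.0193).

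The 2 genes placed after Esrrg in the pathway gave no fall that passed the test. Sox8 read 0.456, 0.761, 0.056 and 0.508 CPM in male WT, 0.152, 0.416, 0.294 and 0.467 in male LKO, 0.460, 0.777, 0.055 and 0.660 in female WT, and 0.743, 1.10, 1.46 and 0.424 in female LKO, all from 1 to 46 counts. The groups overlap in both sexes. Over both sexes its log2 fold change was 0.36 (SE 0.42, 95% interval -0.51 to 1.23) and without the Cd79a-high libraries -0.04 (SE 0.36). For Gp2 the values were 1.28 (SE 0.70, interval -0.20 to 2.77, adjusted p = 0.533) and 0.81 (SE 0.53). Without female LKO replicate 3 it was 0.64, and without male WT replicate 2 it was 1.81. Esrrg had a slope of 0.00 on Cd79a (SE 0.097, 95% interval -0.20 to 0.21), which lies below the intervals of Gp2 and Spib over the same 16 libraries.

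The remaining members, which include the receptor at the start of the pathway, showed small genotype differences with narrow intervals. Tnfrsf11a differed by 0.01 over both sexes (SE 0.057, 95% interval -0.11 to 0.13), Tnfaip2 by -0.01 (SE 0.11, -0.23 to 0.22) and Aif1 by 0.12 (SE 0.087, -0.06 to 0.30). Pglyrp1 stood at 193, 202, 238 and 225 CPM in male WT, 209, 212, 221 and 208 in male LKO, 163, 183, 186 and 175 in female WT, and 199, 209, 189 and 206 in female LKO. Female WT held the 4 lowest values of the 16, and the female genotypes did not overlap, as for 6.3% of genes. The log2 fold change in females was 0.19 (SE 0.062, unadjusted p = 0.00963, adjusted p = 0.315) and in males -0.01 (SE 0.073). The median log2 fold change of the 9 over both sexes was 0.12, beside 0.00 over all genes, and 7 of the 9 were above 0. The share of all genes above 0 was not computed. The lean was not particular to the 9, since 7 of 7 epithelial and 10 of 11 macrophage and dendritic cell genes were above 0. So were 11 of 14 further M cell genes, against 3 of 7 Paneth and goblet cell genes.

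Between the sexes, none of 7 members tested in WT and none of 8 in LKO passed edgeR's test, where 0.25% and 0.0984% of all genes did. At an unadjusted p below 0.05 there were 2 of 7 in WT and 4 of 8 in LKO, against 13.9% and 22.6% of genes. The 2 in WT were Pglyrp1 and Tnfrsf11a, the latter with a log2 difference of -0.17, male over female (SE 0.069, adjusted p = 0.295). In LKO Tnfrsf11a differed by 0.02 (SE 0.083). In WT, Pglyrp1 was higher in males without overlap, as for 8.16% of genes, with a log2 difference of 0.28, male over female (SE 0.077, adjusted p = 0.155). DESeq2 called it (adjusted p = 0.0441), a tool that called 241 genes where edgeR called 38. Gp2 and Sox8 in WT, and Sox8 in LKO, were too low for the filter on counts. With no filter edgeR gave Sox8 a log2 difference of -1.44 in LKO (SE 0.44, adjusted p = 0.107) and -0.14 in WT (SE 0.61). For Gp2 in WT it was 0.23 (SE 0.66).

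Tnfaip2 had lower means in males in both genotypes. It read 30.8, 33.8, 37.7 and 26.6 CPM in male WT and 31.2, 30.3, 35.7 and 31.3 in male LKO, against 47.1, 44.3, 47.2 and 28.2 in female WT and 45.8, 30.6, 45.4 and 42.5 in female LKO. A single library of each female group, WT replicate 4 and LKO replicate 2, fell into the male range. The log2 difference, male over female, was -0.37 in WT (SE 0.17, adjusted p = 0.369) and -0.36 in LKO (SE 0.12, adjusted p = 0.120). With each library left out in turn it ran from -0.52 to -0.29 in WT and from -0.48 to -0.30 in LKO. Of the 8 fits in each genotype 1 passed, the one without the low library just named (adjusted p = 0.0434 without female WT replicate 4 and 0.0394 without female LKO replicate 2), which is no test apart from its low value. In LKO the 3 others under an unadjusted p of 0.05 were Spib at -2.05 (SE 0.74, adjusted p = 0.181), Aif1 at -0.31 (SE 0.12, adjusted p = 0.155) and Ccl9 at 0.23 (SE 0.10, adjusted p = 0.210). DESeq2 called Spib there (adjusted p = 0.0388) and 1016 genes in all, against 15 by edgeR. Without the Cd79a-high libraries, 2 of the 4 female LKO ones, Spib differed by -0.43 (SE 0.19, adjusted p = 0.353). Of 11 B cell follicle genes tested in this comparison over all 8 libraries 0 were positive, with a median of -2.01, and their part in the Spib value was not tested.

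The spread among animals of 1 group was widest for Gp2, Sox8 and Spib. The biological coefficient of variation was 83.7% for Gp2, 55.9% for Sox8 and 53.4% for Spib, close to the 56.4% of Cd79a. The median over the 200 genes nearest in level was 24.5%, 24.8% and 8.54% for the 3 members. The coefficient of variation was 16.6% for Tnfaip2, 17.8% for Ccl20 and 12.6% for Ccl9, with medians of 7.42%, 16.4% and 7.55% over their own nearest genes. Relative to its nearest genes, Tnfaip2 was thus as variable as Sox8. The lowest were Aif1 at 8.16%, Tnfrsf11a at 7.30% and Pglyrp1 at 5.97%. All 16 libraries entered these values, and none was computed without the Cd79a-high ones. In male WT, Spib read 21.3 CPM in the Cd79a-high library and 9.42 to 9.90 in the rest. In female LKO it read 38.9 and 68.0 CPM in the Cd79a-high libraries, against 11.6 and 8.58.

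The genes most alike in pattern, by Pearson's r of log2 CPM over the 16 libraries among 14424 genes with a mean of at least 1 CPM, are given as a description. For Spib they were Clu (r = 0.972), Snn (0.967) and Srpk3 (0.962), with Cd79a at rank 19. For Gp2 they were Vamp1 (0.879), Zfp318 (0.861) and the lymphocyte receptor Btla (0.860), with Cd79a at rank 16. Ccl20 was most like Ly6g5b (0.846), Arhgap15 (0.840) and Nudt17 (0.836), and Cd79a stood at rank 186. Away from the follicle pattern, Tnfaip2 was most like Tap1 (0.909) and Tap2 (0.892), the peptide transporter of antigen presentation, and the cytokine signalling inhibitor Socs1 (0.881). Aif1 was most like the complement gene C1qa of macrophages (0.852), Gpr65 (0.845) and Hrct1 (0.825). Pglyrp1 was most like Cystm1 (0.909), the polarity gene Crb3 (0.895) and Clic1 (0.893). For Sox8 they were Vwa1 (0.847), Hoxb2 (0.838) and Otub2 (0.830), for Tnfrsf11a Serpini1 (0.811), Cc2d2a (0.797) and Cux2 (0.785), and for Ccl9 they included Pak6 (0.804) and Tbccd1 (0.794).

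Among themselves the 9 genes did not move as a unit. Of their 36 pairs, 6 had r above 0.5 over the 16 libraries, led by Gp2 with Spib at 0.801 and Tnfaip2 with Aif1 at 0.640. Within the 12 libraries that are not Cd79a-high only the pair of Tnfaip2 and Aif1, at 0.720, remained above 0.5, and Gp2 with Spib stood at 0.178. These pairs share libraries and depth, and no p is given.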

How the data were processed

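Poly(A) RNA of the ileum was sequenced as stranded libraries in single-end 100 bp reads. Per the labels and the study's methods, the authors aligned reads with STAR 2.5.2 to mm10, kept uniquely placed reads and counted exons with HOMER 4.10. The strand option and the annotation version are not given in the sources used here. Uniquely placed reads and a gene's length both bear on the deposited counts, which are raw and whole-number, 1 column per library. Groups and replicate numbers came from the labels, which do not name the animals, so p-values measure the spread between these libraries. All 16 libraries were used.

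The counts were tested with edgeR 4.0.16 (robust quasi-likelihood, TMM, filterByExpr by group, Benjamini-Hochberg over all genes, threshold 0.05) in R 4.3.3. Each sex was fitted alone for genotype, each genotype alone for sex, all libraries with sex as a covariate or an interaction, and all libraries with group and log2 CPM of Cd79a. SE is the absolute log2 fold change over the square root of F, and intervals are 95%. Correlations used log2 CPM with a prior count of 2 and 100000 two-sided permutations. The fits were checked on simulated counts. Alternatives were DESeq2 1.42.0, other scalings and filters, a replicate block, a Cd79a covariate and leaving out libraries. The genes and lists were chosen with earlier results of these data known. The text names the 9 genes, Cd79a and Esrrg, up to 4 genes per list and comparison that passed, and the 3 most alike genes for each member, of which 1 is not reported here. Bcl6, Anxa5, Marcksl1, Tnfsf11 and Ccr1 and the Cd79a-high libraries were singled out after their values were seen. All 9 symbols matched 1 RefSeq promoter each. At these depths a gene at 1 count is known only to within counting error, which limits Gp2 and Sox8.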

Additional observations from a re-analysis of the deposited data

Results flagged for a closer look

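Of 40 sets of 4 libraries looked at, 10 genes in 4 groups, 2 held a library far from the other 3, and chance alone marks about 1 set in 20. Spib in male WT replicate 2 read 21.3 CPM, with the nearest of its group at 9.90, a gap of 0.960 of the group's range, past Dixon's 95% critical value. Cd79a in the same library stood at 28.0 CPM, the highest of its group. Tnfaip2 in female WT replicate 4 read 28.2 CPM, with the nearest at 44.3 and a gap of 0.849 of the range, also past it. What sets these libraries apart was not tested.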

How the results depend on the processing

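Results changed with the 4 Cd79a-high libraries left out, with the tool and with single libraries left out. Of 9 genes, 2 followed Cd79a in all libraries, 1 with at least 10 counts in every library, in males alone, in females alone or without the 2 female LKO libraries of high Cd79a, 0 without all 4, and 1 to 2 with single libraries left out. Over all genes the calls along this slope numbered 448 of 15597 tested, and 162 of 15695 without female LKO replicate 3. They were 419 of 14260 with at least 10 counts in every library, 20 of 15168 in males alone and 308 of 15297 in females alone. Without the 2 female LKO libraries of high Cd79a they were 64 of 15840, and without all 4 only 1 of 15779. Gp2 was not tested with at least 10 counts in every library, in males alone or in females alone. The member counts by genotype and for the difference between sexes stayed at 0 under each alternative run. Those by sex moved from 0 to 1 with DESeq2 in WT (Pglyrp1) and in LKO (Spib), and ran from 0 to 1 with single libraries left out. In WT it was 1 without female WT replicate 4 (Tnfaip2), and in LKO 1 without female LKO replicate 2 (Tnfaip2) or replicate 4. Without replicate 4 no member tested over all LKO libraries changed its call, which leaves Sox8, below the count filter in the main fit. Without female LKO replicate 4 the sex difference in LKO held 665 genes in place of 15. DESeq2 called 224 genes by genotype over both sexes where edgeR called 42. The cause of these changes was not tested. Counting depth limits Gp2 and Sox8.

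Same-numbered libraries of different groups deviated together in 6 of 24 pairs by a correlation above 0.1 (range -0.10 to 0.26), so the numbers do not pair them. With the replicate number as a block the member counts were 0 by genotype, 0 by sex and 2 for the slope, and the calls over all genes went from 8 to 16 in males, 6 to 15 in females, 42 to 16 over both sexes, 38 to 42 and 15 to 22 by sex in WT and LKO, and 448 to 209 for the slope.

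Signs turned for log2 values close to 0 or carried by the Cd79a-high libraries. By genotype without those libraries these were, in males, Ccl9 -0.065, Tnfaip2 0.025 and Aif1 -0.019, in females Tnfaip2 0.16 and Spib -0.15, and over both sexes Tnfaip2 0.077, Sox8 -0.036 and Spib -0.26. With Cd79a as a covariate they were Ccl9 -0.042 and Tnfaip2 0.017 in males, Spib -0.29 in females and -0.29 over both sexes. With the replicate block Tnfaip2 was 0.0066 in males, and with upper-quartile scaling 0.0074 in females. For the difference between sexes, Tnfaip2 was -0.020 with upper-quartile scaling and -0.14 without the Cd79a-high libraries, Gp2 was 0.14 with the covariate and 0.20 without those libraries, and Ccl20 was 0.12 with the covariate. By sex in LKO, Tnfrsf11a was -0.024 with upper-quartile scaling and Gp2 0.17 with the covariate. Slopes turned to -0.031 with the block and -0.026 with an epithelial covariate for Tnfaip2, to 0.052 for Aif1 with no group terms, to 0.025 for Ccl9 and -0.014 for Tnfrsf11a in females alone, and without the Cd79a-high libraries to -0.052 for Gp2, -0.59 for Sox8, 0.099 for Pglyrp1 and 0.11 for Aif1.

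With single libraries left out, the values that crossed 0 ran by genotype in males from -0.065 to 0.13 for Ccl9, -0.083 to 0.082 for Tnfaip2, -0.058 to 0.040 for Pglyrp1 and -0.019 to 0.11 for Aif1, in females from -0.16 to 0.10 for Tnfaip2, and over both sexes from -0.081 to 0.048 for Tnfaip2, -0.018 to 0.043 for Tnfrsf11a and -0.072 to 0.59 for Spib. The difference between sexes ran from -0.11 to 0.15 for Tnfaip2. By sex they ran in WT from -0.039 to 0.14 for Ccl9 and -0.41 to 0.13 for Spib, and in LKO from -0.024 to 0.093 for Tnfrsf11a. Slopes ran from -0.034 to 0.064 for Tnfaip2 and -0.038 to 0.0061 for Pglyrp1, and r with Cd79a from -0.013 to 0.27 for Tnfrsf11a and -0.054 to 0.42 for Aif1.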
